A study of Mus musculus with 6 samples.

Results

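The RNAs described here are the mitochondrial tRNAs and rRNAs of exosomes, the small vesicles that cells release, from mouse skin cells in culture, as read in small RNA libraries. All rows of the count tables whose name begins with mt- were taken, 24 of 16310 rows, of which 22 are tRNA genes and 2 are rRNA genes. Each of them is annotated as a mitochondrial tRNA or rRNA on the mitochondrial chromosome in GENCODE M21. The epidermal stem cell (ESC) group held 3 libraries of exosomes from stem cells of the dorsal skin of C57BL/6 mice aged 3 weeks, grown without serum in keratinocyte medium. The dermal fibroblast (Fb) group held 3 libraries of exosomes from fibroblasts of the dorsal skin of db/db mice aged 14 weeks, a mutant strain that becomes obese and diabetic. The Fb cells grew with serum and were moved to serum-free medium for 2 days before collection. All libraries carry C57BL/6 as strain label, and cells of both groups were at passage 0 to 1. Cell type, strain, age and medium changed together, so their parts in any difference cannot be told apart. Fewer vesicles with mitochondrial RNA and less of it per vesicle cannot be told apart either. The labels do not say which animals gave which library, so p-values cover only the variation among the 6 libraries, which may be technical.

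Mitochondria carry a small circular genome with their own tRNAs and rRNAs, which serve only the ribosomes inside the organelle. Both strands of the circle are transcribed into long precursors, and tRNAs lie between the other genes, where their excision releases the flanking mRNAs and rRNAs. mt-Rnr1 and mt-Rnr2 are the rRNAs of the small and large ribosomal subunit and are encoded on the heavy strand with 14 of the tRNAs. The other 8 tRNAs are encoded on the light strand. A tRNA gene is named by the one-letter code of its amino acid, so mt-Tq carries glutamine and mt-Tp proline. Serine and leucine have a pair of genes each.

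Of the tRNAs, 5 are shown 5′ to 3′ as DNA letters of the GENCODE M21 transcripts (build GRCm38), with the anticodon in capitals. mt-Tq and mt-Ts1 were the most abundant mitochondrial tRNAs in both groups, mt-Tm and mt-Tp had the fitted differences farthest above and below 0 after mt-Tq, and mt-Ts2 is the other serine tRNA and the shortest. Of these only mt-Tq passed with all libraries and library totals. Their positions are chrM:3772-3842 (mt-Tq, minus strand), chrM:6870-6938 (mt-Ts1, minus), chrM:3845-3913 (mt-Tm, plus), chrM:15356-15422 (mt-Tp, minus) and chrM:11613-11671 (mt-Ts2, plus).
mt-Tq: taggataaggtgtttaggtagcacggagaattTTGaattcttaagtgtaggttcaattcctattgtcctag
mt-Ts1: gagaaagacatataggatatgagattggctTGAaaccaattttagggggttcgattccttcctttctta
mt-Tm: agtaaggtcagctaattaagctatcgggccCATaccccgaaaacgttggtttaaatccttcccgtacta
mt-Tp: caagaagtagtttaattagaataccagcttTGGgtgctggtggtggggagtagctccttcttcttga
mt-Ts2: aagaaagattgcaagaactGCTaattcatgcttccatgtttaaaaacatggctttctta

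Each ESC library held 9894485 to 11149046 reads, and each Fb library 6914504 to 8691350. Of these, 1739 to 1969 were mitochondrial in each ESC library, against 391 to 617 in the Fb libraries. Nuclear tRNA rows took 78.7% to 79.9% of all reads in ESC libraries, against 80.5% to 89.6% in Fb libraries, so a second scale used only the reads outside nuclear tRNA rows. Those numbered 2037742 to 2243038 in ESC and 831002 to 1690505 in Fb libraries, and miRNA rows made up 66.0% to 69.0% of them in ESC but 6.54% to 11.8% in Fb libraries. Fb replicate 1 stood apart. Its log2 CPM (counts-per-million, the reads of an RNA scaled to the library total) over 2999 RNAs correlated with Fb replicates 2 and 3 at r = 0.66 and 0.77, whereas these correlated with each other at r = 0.91. The TMM factor, which edgeR derives from the bulk of RNAs, was 2.18 in Fb replicate 1, 0.231 in Fb replicate 2, 0.463 in Fb replicate 3 and 1.62 to 1.63 in ESC libraries. Of the miRNA markers, 3 of 3 epithelial ones (miR-200c-3p, miR-203-3p and miR-205-5p) were higher in every ESC library, and 4 of 4 stromal ones (miR-143-3p, miR-145a-5p, miR-199a-5p and miR-214-3p) in every Fb library. Of the red cell and serum markers, miR-451a overlapped between the groups. The other, miR-122-5p, was higher in every ESC library, with 11, 9 and 10 reads in ESC and 0.286, 1 and 0 in Fb libraries. The stromal miR-143-3p was at 479 CPM in Fb replicate 1 and 1865 and 1710 in Fb replicates 2 and 3.

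Mitochondrial RNA was a minor part of the exosome reads and a larger share of all reads in every ESC library than in any Fb library, a direction that depended on the scaling. The groups lay apart for the tRNAs and overlapped for the rRNAs. Mitochondrial tRNAs made up 0.0160%, 0.0144% and 0.0145% of all reads in ESC replicates 1, 2 and 3 and 0.00314%, 0.00457% and 0.00396% in Fb replicates 1, 2 and 3. The exact 95% binomial intervals were 0.0137% at the lowest in ESC and 0.00504% at the highest in Fb exosomes. Every ESC library was above every Fb library, with means of 0.0150% ± 0.000864 (SD, n = 3) and 0.00389% ± 0.000719 (SD, n = 3), a ratio of 3.86. Mitochondrial rRNAs were at 0.00333%, 0.00322% and 0.00222% in ESC and 0.00316%, 0.00253% and 0.00170% in Fb exosomes, and the groups overlapped. Outside nuclear tRNA rows, mitochondrial tRNAs held 0.0726% ± 0.00472 in ESC and 0.0264% ± 0.00342 in Fb exosomes, again without overlap. rRNAs there held 0.0142% ± 0.00326 in ESC and 0.0181% ± 0.0107 in Fb exosomes, with Fb replicate 1 at 0.0304% and the others at 0.0130% and 0.0109%. The two-sided exact permutation test gave p = 0.1 for the tRNA shares on both scales, a value that cannot be lower with 3 libraries a group, and an exact p of 0.143 after Benjamini-Hochberg adjustment over 10 shares and ratios. For the rRNA shares the exact permutation p was 0.5 of all reads and 0.8 outside nuclear tRNA rows.

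In the fit over all RNAs with library totals (edgeR), the log2 fold change, positive where ESC was higher, was 1.95 for the tRNA sum (SE 0.65, adjusted p = 0.0855) and 0.25 for the rRNA sum (SE 0.73, adjusted p = 0.875). Neither passed the threshold of 0.05, which 6.76% of all RNAs passed as higher in ESC and 4.95% as higher in Fb. The median over all RNAs in that fit was 0.81, so the tRNA sum lay 1.14 above it and the rRNA sum 0.56 below it (-0.56). With TMM factors that median was 0.07, and the sums were at -0.11 and -1.57, so the tRNA direction turned. Without Fb replicate 1 the tRNA sum passed at edgeR adjusted p = 0.00658 (log2 fold change 1.81), in a fit that called 70.3% of all RNAs higher in ESC and had a median of 2.44. Outside nuclear tRNA rows, with all libraries and library totals, neither sum passed. There the tRNA sum was positive and the rRNA sum negative.

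The balance of mitochondrial tRNA to mitochondrial rRNA uses no library total. The tRNA reads were 4.79, 4.48 and 6.54 times the rRNA reads in ESC replicates 1, 2 and 3 and 0.992, 1.80 and 2.33 times in Fb replicates 1, 2 and 3. All ESC libraries lay above all Fb libraries, and Fb replicate 1 had about as many rRNA as tRNA reads. tRNAs thus formed 83.7% ± 2.63 of mitochondrial reads in ESC and 61.4% ± 10.4 in Fb exosomes. On the log2 scale the ratio was 2.38 ± 0.29 in ESC and 0.69 ± 0.63 in Fb exosomes, a difference of 1.69 (exact permutation p = 0.1, adjusted exact p = 0.143). With mt-Tq left out of the tRNA reads the difference was 1.13 and the groups still did not overlap. With mt-Tq included and Fb replicate 1 left out, the difference was 1.34.

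**Figure D1:**
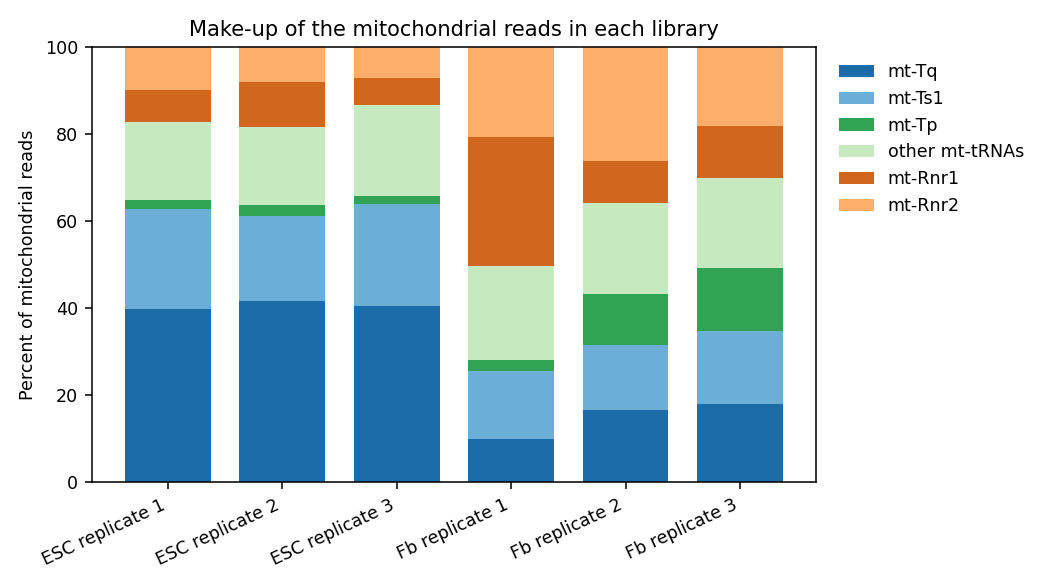
Percent of mitochondrial reads (vertical axis) taken by mt-Tq, mt-Ts1, mt-Tp, the other mitochondrial tRNAs, mt-Rnr1 and mt-Rnr2 in each of the 6 libraries (one stacked bar per library). The tRNA part is 81.8% to 86.7% in ESC and 49.8% to 70.0% in Fb libraries.

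Both rRNAs overlapped between the groups. mt-Rnr1 was at 14.3, 18.2 and 10.4 CPM of all reads in ESC replicates 1, 2 and 3 and at 18.6, 6.79 and 6.76 in Fb replicates 1, 2 and 3. Its Fb value was high in replicate 1 only, and the log2 fold change was 0.41 (SE 0.82, edgeR adjusted p = 0.822). Without Fb replicate 1 both other Fb values lay below every ESC value, and the log2 fold change was 1.07 (edgeR adjusted p = 0.0622). In that fit the median over all RNAs was 2.44, above the value of mt-Rnr1, and 70.2% of them passed as higher in ESC. mt-Rnr2 was at 19.1, 14.0 and 11.9 in ESC and 13.02, 18.5 and 10.2 CPM in Fb exosomes, and its fitted log2 difference was 0.10 (SE 0.76, edgeR adjusted p = 0.954). Outside nuclear tRNA rows the log2 fold changes were -0.31 for mt-Rnr1 and -0.39 for mt-Rnr2, and neither passed. The subunits were not in a fixed ratio: mt-Rnr1 had 0.750, 1.29 and 0.872 times the reads of mt-Rnr2 in ESC and 1.43, 0.366 and 0.662 times in Fb exosomes.

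With library totals and all libraries, mt-Tq, the glutamine tRNA, had the largest fitted difference of the mitochondrial RNAs and was the only one to pass. mt-Tm was farther from 0 without Fb replicate 1, and several members, mt-Tm and mt-Tp among them, were so with TMM factors and in DESeq2. mt-Tq was at 77.0, 73.6 and 67.9 CPM of all reads in ESC replicates 1, 2 and 3 and at 6.25, 11.9 and 10.3 in Fb replicates 1, 2 and 3. The groups lay far apart, with means of 72.8 ± 4.62 and 9.46 ± 2.89 (SD, n = 3), a ratio of 7.70. Its log2 fold change was 2.94 (SE 0.74, edgeR adjusted p = 0.0237), which is 2.14 above the median of all RNAs. In that fit 6.77% of 2999 RNAs passed as higher in ESC and 4.97% as higher in Fb, and 1 of the 11 mitochondrial RNAs that met the count filter did. Outside nuclear tRNA rows mt-Tq was at 353 ± 29.8 CPM in ESC and 62.4 ± 3.28 in Fb exosomes, and its log2 fold change of 2.50 (SE 0.82) did not pass (edgeR adjusted p = 0.108). On that scale 0 of 11 mitochondrial RNAs passed in edgeR, where 4.12% of 2960 RNAs passed as higher in ESC and 2.36% as higher in Fb. An unadjusted p under 0.05 was reached by 1 of the 11 there, and DESeq2 called 2, mt-Tc and mt-Tp, as higher in Fb on either scale. DESeq2 called 12.4% of all RNAs higher in Fb and 5.6% higher in ESC on all reads, and 9.73% and 5.2% outside nuclear tRNA rows. With TMM factors mt-Tq had a log2 fold change of 0.83 (edgeR adjusted p = 0.716) on the scale of all reads, where 3.63% of all RNAs passed as higher in ESC and 8.2% as higher in Fb. Its call also ended without any one ESC library or without Fb replicate 3 (edgeR adjusted p = 0.120 to 0.151).

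Within the mitochondrial tRNA reads, where no library total enters, mt-Tq held 48.2%, 51.0% and 46.7% in ESC replicates 1, 2 and 3 and 19.9%, 25.9% and 25.9% in Fb replicates 1, 2 and 3. The exact binomial intervals did not meet, at 44.1% at the lowest in ESC and 31.5% at the highest in Fb exosomes. mt-Ts1, a serine tRNA, held a like share in both groups, 26.3% ± 2.10 in ESC and 26.1% ± 4.66 in Fb exosomes. mt-Tq thus had 1.86 ± 0.235 times the reads of mt-Ts1 in ESC and 0.948 ± 0.274 times in Fb exosomes. This measure was added after the data were seen and carries no test.

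mt-Ts1 was at 44.5, 34.5 and 39.4 CPM of all reads in ESC and 9.88, 10.6 and 9.40 in Fb exosomes. The groups did not overlap, but the log2 fold change of 1.99 (SE 0.74) did not pass (edgeR adjusted p = 0.127). The methionine tRNA mt-Tm, used for both initiation and elongation in mitochondria, was at 9.40, 5.92 and 6.26 in ESC and 2.49, 0.575 and 0.868 CPM in Fb exosomes. Fb replicate 1 was the highest Fb library, and the log2 fold change was 2.44 (SE 0.98, edgeR adjusted p = 0.167). Without that library it was 3.31 (edgeR adjusted p = 0.00382), against 2.72 for mt-Tq, and with TMM factors it was 1.37. In the fit without Fb replicate 1 the median over all RNAs was 2.44, and 70.2% passed as higher in ESC. There mt-Tm met the count filter only with its ESC libraries, so nothing is read from that p-value. The histidine tRNA mt-Th was at 3.34, 4.39 and 7.04 in ESC and 1.00, 1.38 and 1.45 CPM in Fb exosomes, without overlap (log2 fold change 1.94, edgeR adjusted p = 0.285). mt-Ts2, the other serine tRNA, which lacks the D arm of ordinary tRNAs, was at 7.98, 7.44 and 9.64 in ESC and 4.50, 3.68 and 1.88 in Fb exosomes. It was separate on that scale but did not pass (log2 fold change 1.31, edgeR adjusted p = 0.506). Outside nuclear tRNA rows Fb replicate 1, at 43.3, lay among the ESC values of 37.0 to 45.3. The alanine tRNA mt-Ta was at 3.03, 3.48 and 3.83 in ESC and 0.751, 1.38 and 1.85 CPM in Fb exosomes, with groups apart on both scales. It passed on neither scale (log2 fold change 1.37 of all reads, edgeR adjusted p = 0.525). The glycine tRNA mt-Tg had 18, 15 and 10 reads in ESC and 2, 3 and 2 in Fb libraries and did not meet the count filter.

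mt-Tp, the proline tRNA, had its highest values in Fb exosomes. It was at 4.04, 4.31 and 2.92 CPM of all reads in ESC replicates 1, 2 and 3 and at 1.63, 8.40 and 8.24 in Fb replicates 1, 2 and 3. Fb replicates 2 and 3 were above every ESC library and Fb replicate 1 was below them all, so the groups overlapped (log2 fold change -0.70, SE 0.93, edgeR adjusted p = 0.745). With TMM factors the log2 fold change was -2.96 (edgeR adjusted p = 0.126), and DESeq2 gave -3.02 (adjusted p = 0.00338). Without Fb replicate 1 the log2 fold change was -1.15 (edgeR adjusted p = 0.0409), where 8.63% of RNAs passed as higher in Fb. Of the mitochondrial tRNA reads mt-Tp held 2.53%, 2.98% and 2.01% in ESC and 5.19%, 18.4% and 20.8% in Fb exosomes, here higher in every Fb library. The glutamate tRNA mt-Te was at 5.15, 4.13 and 3.09 in ESC and 1.88, 3.45 and 1.88 CPM in Fb exosomes. The cysteine tRNA mt-Tc was at 1.11, 1.26 and 1.39 in ESC and 1.00, 2.30 and 1.16 CPM in Fb exosomes. Both overlapped on the scale of all reads (edgeR adjusted p = 0.729 and 0.889). Both held more of the mitochondrial tRNA reads in every Fb library, mt-Te with 2.73% ± 0.559 in ESC and 6.10% ± 1.41 in Fb exosomes and mt-Tc with 0.840% ± 0.132 and 3.72% ± 1.15.

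**Figure D2:**
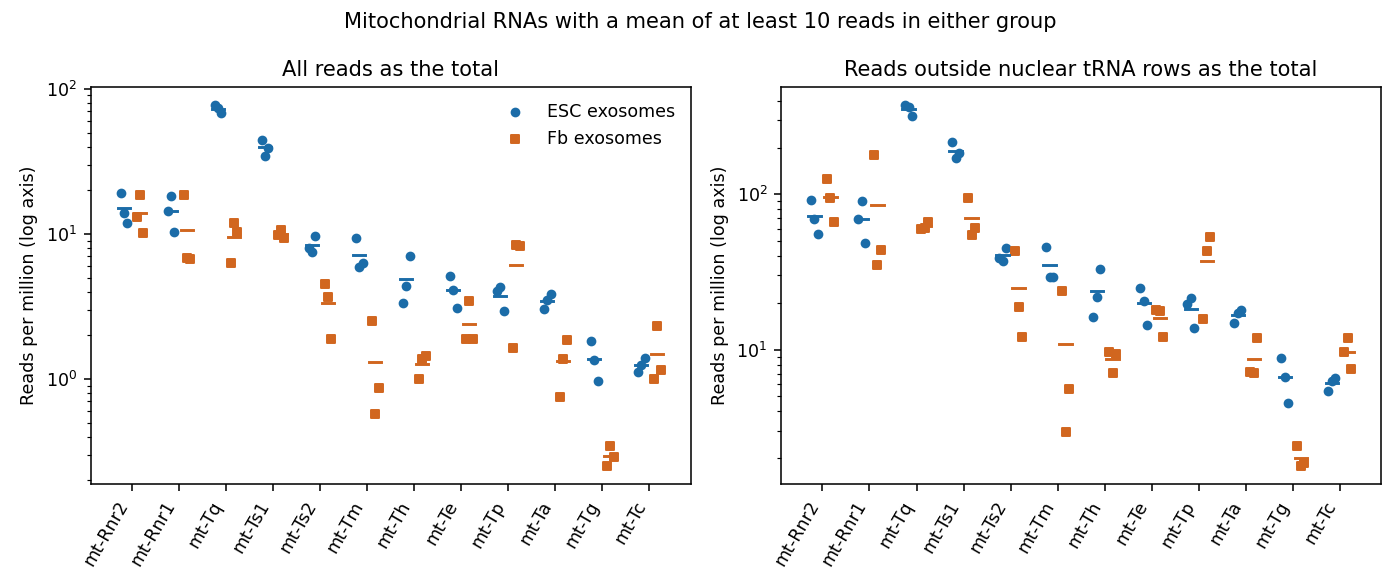
CPM on a log axis for the 12 mitochondrial RNAs with a mean of at least 10 reads in either group, per library (points; circles ESC, squares Fb) with group means (lines), of all reads (left) and of reads outside nuclear tRNA rows (right). mt-Tq lies apart at 67.9 to 77.0 in ESC, against 6.25 to 11.9 in Fb libraries, on the left, while the rRNA points of the groups overlap in both panels.

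Of the 11 mitochondrial RNAs fitted, 9 had positive and 2 negative log2 fold changes with library totals, and their median was 1.31 against 0.81 for all RNAs. On the scale of all reads 6 of these 11 were higher in every ESC library and 0 in every Fb library, while 22.3% of all RNAs tested were higher in every ESC library and 8.87% in every Fb library. Outside nuclear tRNA rows the counts were 5 (12.5% of all RNAs) and 1, mt-Tc (7.33%). On all reads mt-Ta, mt-Tc, mt-Th and mt-Tm met the count filter only with their ESC libraries. Outside nuclear tRNA rows mt-Tm did, so the counts on both scales carry no test. The shares over all RNAs went through the same filter. With TMM factors 4 of 11 were positive and 7 negative. Leaving out Fb replicate 1 gave 12 RNAs fitted, of which 6 passed as higher in ESC (mt-Tg, mt-Th, mt-Tm, mt-Tq, mt-Ts1 and mt-Ts2) and 1, mt-Tp, as higher in Fb, on either scale. In those fits 70.2% of all RNAs passed as higher in ESC on the scale of all reads and 59.3% outside nuclear tRNA rows, and 8.63% and 6.17% as higher in Fb. The 6 of 12 members called higher in ESC do not exceed these shares of all RNAs, so nothing about the members is read from that count. In these fits mt-Tg and mt-Tm met the count filter only with their ESC libraries.

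**Figure D3:**
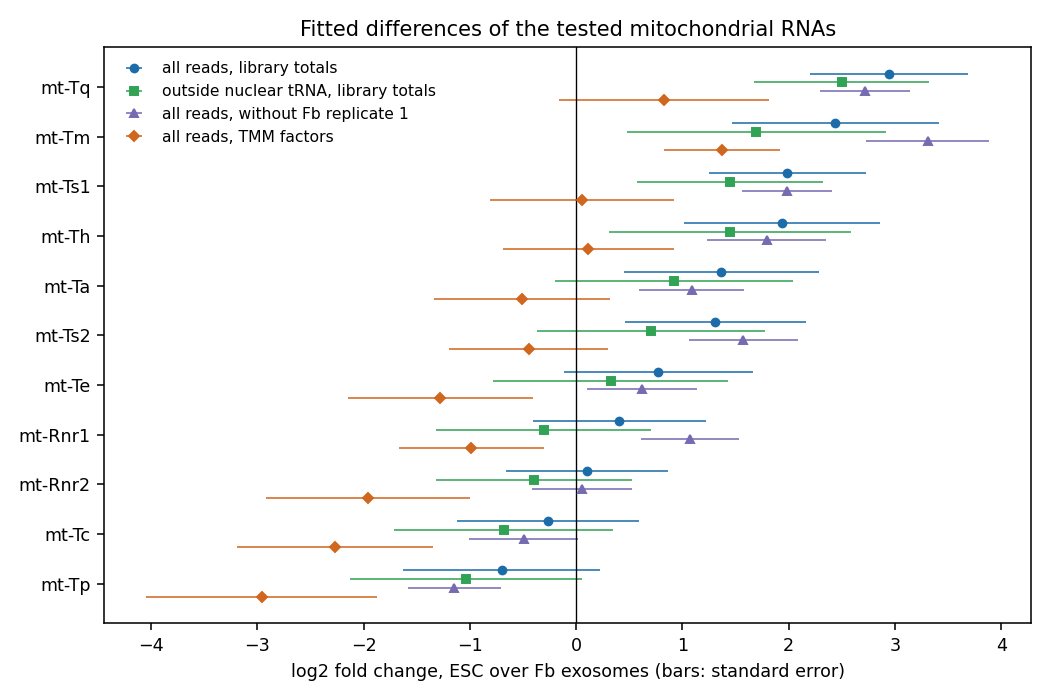
Fitted log2 fold changes (horizontal axis, positive higher in ESC; bars are standard errors) of the 11 mitochondrial RNAs tested, with library totals of all reads, library totals outside nuclear tRNA rows, without Fb replicate 1, and with TMM factors. mt-Tq runs from 0.83 with TMM factors to 2.94 with library totals, and mt-Ta, mt-Ts2, mt-Te, mt-Rnr1 and mt-Rnr2 change sign with TMM factors.

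The other 12 tRNAs were rare. Of these, 6 (mt-Td, mt-Tf, mt-Tk, mt-Tl2, mt-Tr and mt-Tw) had 3 or fewer reads in every library, and 4 of the 6 (mt-Td, mt-Tf, mt-Tk and mt-Tr) had 0 reads in all Fb libraries, so differences in them were not detectable at this depth. A count of 3 reads has an exact 95% counting interval of 0.619 to 8.77 reads. The remaining 6 (mt-Ti, mt-Tl1, mt-Tn, mt-Tt, mt-Tv and mt-Ty) had at most 17 reads in a library. The tyrosine tRNA mt-Ty had 1.4, 2 and 2 reads in ESC and 4.8, 4 and 4 in Fb libraries, or 0.171 ± 0.0266 and 0.546 ± 0.0754 CPM of all reads. It was the only one of the 24 that was higher in every Fb library on that scale, at counts too low to pass the filter.

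mt-Tq and mt-Ts1, both on the light strand, were the most abundant members per length. In RPKM, which is CPM of all reads divided by gene length in kilobases, mt-Tq was at 1026 ± 65.1 and mt-Ts1 at 572 ± 72.5 in ESC exosomes, against 14.9 ± 4.09 for mt-Rnr1 and 9.48 ± 2.33 for mt-Rnr2. In Fb exosomes the same scale gave 133 ± 40.7 for mt-Tq, 144 ± 8.63 for mt-Ts1, 11.2 ± 7.14 for mt-Rnr1 and 8.80 ± 2.68 for mt-Rnr2, and these tRNAs did not differ beyond their spread there. Light-strand genes gave 83.8% ± 1.42 of mitochondrial tRNA reads in ESC, against 80.1% ± 7.63 for Fb exosomes, with Fb replicate 1 lowest at 71.3% (exact permutation p = 0.7). Of the 8 light-strand tRNAs 6 had a mean of at least 10 reads in a group, and of the 14 heavy-strand tRNAs 4 did. All 6 tRNAs with 3 or fewer reads in every library were heavy-strand genes.

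Neighbouring genes differed widely. mt-Ti, mt-Tq and mt-Tm lie side by side, with mt-Tq on the other strand, and mt-Ti was at 0.738 ± 0.683 CPM of all reads in ESC exosomes where mt-Tq was at 72.8. Together these 3 genes held 53.9% ± 2.46 of mitochondrial tRNA reads in ESC, against 28.0% ± 0.828 for Fb exosomes. The next group along the circle, mt-Tw, mt-Ta, mt-Tn, mt-Tc and mt-Ty, held 3.70% ± 0.563 in ESC and 9.39% ± 0.734 in Fb exosomes, while its CPM of all reads ran the other way, at 5.51 ± 0.606 and 3.67 ± 0.824. mt-Th, mt-Ts2 and mt-Tl2 held 8.94% ± 2.27 in ESC and 12.5% ± 4.55 in Fb exosomes, at 13.3 ± 2.93 and 4.68 ± 1.07 CPM of all reads. The tRNAs that flank the rRNAs, mt-Tf, mt-Tv and mt-Tl1, summed to 0.826 ± 0.129 CPM of all reads in ESC, against 0.702 ± 0.247 for Fb exosomes, or 0.555% ± 0.110 and 1.83% ± 0.667 of mitochondrial tRNA reads. The order of the tRNAs was alike in both groups, with a Spearman rho of 0.87 between the mean levels per length over 22 genes, which share their libraries. The GC content of the tRNA genes was 17.1% to 44.9%, and its Spearman rho with the level per length was 0.32 in ESC and 0.53 in Fb exosomes over the same 22 genes.

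**Figure D4:**
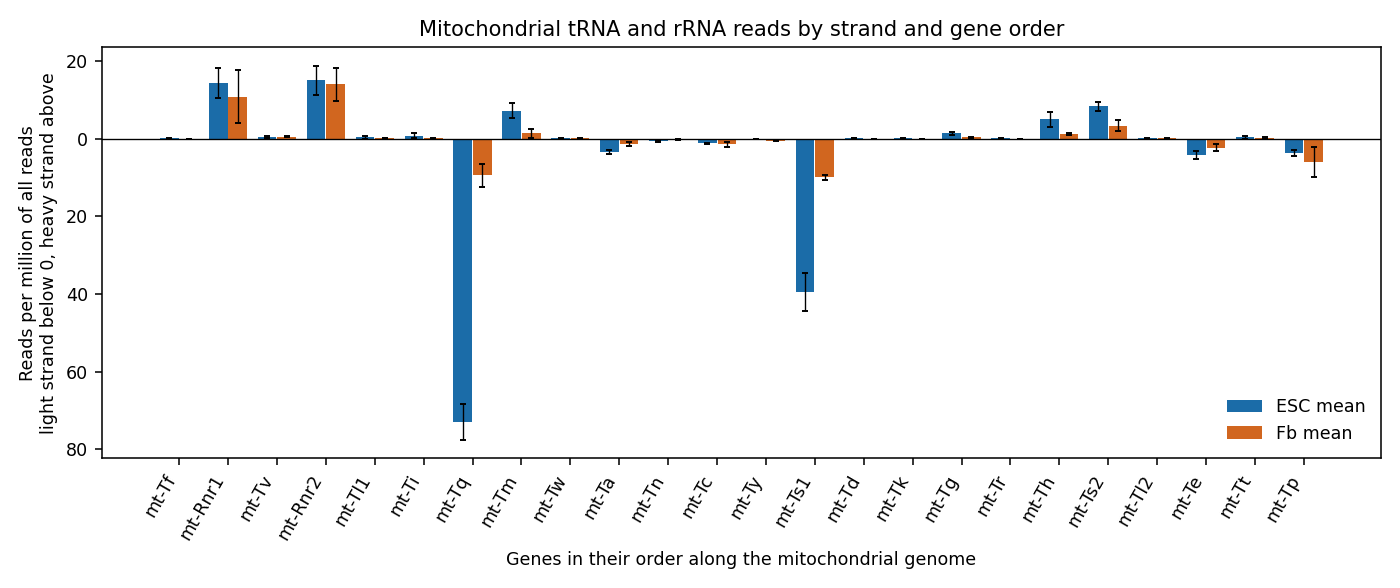
Mean CPM of all reads (bars; error bars are SD, n = 3) of the 24 mitochondrial RNAs in their order along the mitochondrial genome, with heavy-strand genes drawn above and light-strand genes below 0. mt-Tq and mt-Ts1 on the light strand reach 72.8 and 39.5 in ESC exosomes and 9.46 and 9.96 in Fb exosomes.

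Set beside nuclear tRNAs of the same amino acid, mitochondrial genes gave most glutamine and serine tRNA reads in ESC exosomes. mt-Tq had 762, 821 and 704 reads in ESC replicates 1, 2 and 3, and the 19 nuclear glutamine genes together had 243, 280 and 283. In Fb replicates 1, 2 and 3 mt-Tq had 49.97, 103 and 71 reads, and the nuclear genes 795, 6116 and 2518. The mitochondrial share of glutamine tRNA reads was therefore 73.9% ± 2.32 in ESC, against 3.44% ± 2.21 for Fb exosomes, with exact binomial intervals no lower than 68.4% and no higher than 7.73%. For serine it was 65.6% ± 4.33 and 7.58% ± 1.36, and for methionine 37.6% ± 13.6 and 1.00% ± 1.40. The nuclear serine genes had 240, 304 and 242 reads in ESC and 1329, 1301 and 1206 in Fb libraries. Those of methionine had 82.4, 139 and 172 in ESC and 743, 9258 and 1726 in Fb libraries. These shares thus reflect nuclear as well as mitochondrial reads. Without Fb replicate 1 the Fb mean was 0.2002% for methionine and 2.20% for glutamine. Glycine, the most abundant nuclear tRNA, had a mitochondrial share of 2.07e-04% ± 6.49e-05 in ESC exosomes. For 9 amino acids the mitochondrial genes had a mean of at least 10 reads in a group, and their share was higher in every ESC library for 7 of them and overlapped for 2, cysteine and proline. Glycine reached that mean in ESC only, at 14.3 reads against 2.33 in Fb libraries. Nuclear glycine reads were lower in every Fb library. The count has no counterpart over all RNAs and carries no test. The other 11 rested on at most 17 mitochondrial reads in a library, and no difference is read from them. Over all tRNA reads the mitochondrial share was 0.0189% ± 0.00109 in ESC and 0.00462% ± 0.00109 in Fb exosomes (exact permutation p = 0.1, adjusted exact p = 0.143). How reads were divided among nuclear tRNA genes does not enter these sums, but a read shared between amino acids would.

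Nuclear RNAs with a described tie to mitochondria were compared from a list of 9 names, of which 7 had rows and 6 met the count filter. Rmrp, the RNA of RNase MRP, which was first isolated as an enzyme cutting mitochondrial RNA primers, was at 75.4, 55.5 and 73.6 CPM of all reads in ESC and 437, 143 and 202 in Fb exosomes. It did not pass on that scale (log2 fold change -1.93, SE 0.69, edgeR adjusted p = 0.110), but it passed as higher in Fb outside nuclear tRNA rows (-2.66, SE 0.73, edgeR adjusted p = 0.0465). mmu-miR-210-3p (miR-210-3p), a hypoxia miRNA that represses an iron-sulfur cluster scaffold of mitochondria, was at 65.5, 85.9 and 47.4 in ESC and 4.63, 14.6 and 7.81 in Fb exosomes. It passed as higher in ESC of all reads (log2 fold change 2.88, SE 0.80, edgeR adjusted p = 0.0386) but not outside nuclear tRNA rows (2.51, SE 0.86, edgeR adjusted p = 0.127). Rpph1, the RNA of nuclear RNase P, was at 45.5 ± 4.51 and 28.9 ± 20.9 CPM of all reads in ESC and Fb exosomes. Tug1, miR-181c-5p and miR-378a-3p, at 2.99 ± 0.486, 42.2 ± 6.15 and 790 ± 124 in ESC and 0.924 ± 0.601, 13.9 ± 11.3 and 249 ± 104 in Fb exosomes, did not pass on either scale. On the scale of all reads 1 of the 6 passed as higher in ESC and 0 as higher in Fb, against 6.77% and 4.97% of all RNAs. Outside nuclear tRNA rows 0 passed as higher in ESC and 1 as higher in Fb, against 4.12% and 2.36%. Without Fb replicate 1, Rmrp also passed on the scale of all reads (log2 fold change -1.34, edgeR adjusted p = 0.0158), as did Rpph1, Tug1 and miR-378a-3p as higher in ESC, where 70.2% of all RNAs did.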

How the data were processed

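Each library was deposited by the authors as estimated counts, one value per annotated non-coding RNA. FastQC, cutadapt and build GRCm38 are named in the submitters' processing notes. For the aligner, the counting tool, any use of strand and multiply matching reads, details were not given in the sources used here. Of the 117 member values above 0, 30 were fractional. No other row found by its GENCODE M21 gene name shared a 20-base stretch with a member. The miRNA rows carry other names and were not matched. mt-Tf shared 3 of its 49 such stretches with the miRNA gene Mir6481. Among transcripts of genes without a row of their name, Cep295 shared 15 of 48 stretches with mt-Ty. It shared 7 of 56 with mt-Tl1, on the opposite strand. Gm43841 shared 6 of 48 with mt-Tt, and Gm20594 shared 81 of 1563 with mt-Rnr2. Nuclear tRNA genes and other copies of mitochondrial sequence in the nuclear genome were not examined. Reads of a gene and its opposite strand cannot be told apart.

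Counts were rounded and fitted over all RNAs by quasi-likelihood in edgeR 4.0.16 under R 4.3.3 (group as the only term, library totals, filterByExpr minimum count 10 and total 15, Benjamini-Hochberg adjusted p of 0.05). Standard errors came from the fold change and F statistic. Shares were compared with exact permutation tests (scipy 1.17.1). Binomial intervals (Clopper-Pearson, 95%) cover counting error only, since reads carry no molecular identifiers. Values in every library are given for both rRNAs, for members with a mean of at least 10 reads in either group and for those passing a fit. The members and lists were chosen with earlier results of these data known. Anticodons were found by letters, with C or T before and A or G after.

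Alternatives were TMM and upper-quartile factors, DESeq2 1.42.0, no count filter, other library sizes, a replicate block and leaving out each library. Measures without mt-Tq were added after seeing the data. On simulated counts, edgeR on all reads recovered 60.9% of 87 RNAs changed by 4 on the log2 scale and 5.75% of 87 changed by 2, with 1 false call among 2338. Outside nuclear tRNA rows it recovered 2.47% of 81 and 0% of 85. The simulation gave all RNAs the same dispersion (0.666 on all reads, 0.922 outside nuclear tRNA rows). It held no library that stood apart as Fb replicate 1 did, so these rates need not hold for the real libraries.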

Additional observations from a re-analysis of the deposited data

How the results depend on the processing

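Direction depended mainly on the scaling. With TMM factors the log2 fold changes on the scale of all reads were -0.99 (mt-Rnr1), -1.96 (mt-Rnr2), -0.51 (mt-Ta), -1.28 (mt-Te), -0.45 (mt-Ts2), -0.11 (tRNA sum) and -1.57 (rRNA sum), and outside nuclear tRNA rows -0.59 (mt-Ta), -1.37 (mt-Te), -0.029 (mt-Ts1), -0.53 (mt-Ts2) and -0.19 (tRNA sum). DESeq2 gave -1.02 (mt-Rnr1), -2.02 (mt-Rnr2), -0.59 (mt-Ta), -1.36 (mt-Te), -0.49 (mt-Ts2), -0.16 (tRNA sum) and -1.63 (rRNA sum), and outside nuclear tRNA rows -0.66 (mt-Ta), -1.43 (mt-Te), -0.016 (mt-Th), -0.056 (mt-Ts1), -0.56 (mt-Ts2) and -0.23 (tRNA sum). Upper-quartile factors gave -0.62 (mt-Rnr1), -1.49 (mt-Rnr2), -0.087 (mt-Ta), -0.83 (mt-Te), -0.028 (mt-Ts2) and -1.13 (rRNA sum), and outside nuclear tRNA rows -0.31 (mt-Ta), -1.06 (mt-Te) and -0.25 (mt-Ts2). With mitochondrial reads as library size and all RNAs kept in the fit, values were -1.10 (mt-Rnr1), -1.38 (mt-Rnr2), -0.13 (mt-Ta), -0.71 (mt-Te) and -0.15 (mt-Ts2). With miRNA reads as library size the sums were at -1.47 (tRNA) and -3.42 (rRNA). As percent of miRNA reads, ESC minus Fb was -0.392 for all mitochondrial RNA, -0.189 for tRNAs and -0.204 for rRNAs, by construction of the larger miRNA share in ESC. The cause of the other reversals was not tested. mt-Tq and mt-Tm stayed positive and mt-Tp negative in every fit run on either scale.

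The count of members called was 1 on all reads and 0 outside nuclear tRNA rows. On all reads it was 0 with TMM factors, upper-quartile factors, no count filter, mitochondrial reads as library size and the replicate block, and 2 with DESeq2, which also called 2 outside nuclear tRNA rows. Leaving out one library gave 0 to 7 on either scale, the 7 without Fb replicate 1. Leaving out one library moved the tRNA sum between 1.81 and 2.08 on all reads and between 1.38 and 1.57 outside nuclear tRNA rows, and it passed only without Fb replicate 1. The rRNA sum ranged from 0.04 to 0.47 and from -0.61 to 0.25. Single reversals were mt-Rnr2 without ESC replicate 1 (-0.11) or Fb replicate 3 (-0.07), within a range of -0.11 to 0.36, mt-Tc without Fb replicate 2 (0.20), and outside nuclear tRNA rows mt-Rnr1 without Fb replicate 1 (0.82), within a range of -0.68 to 0.82. There the rRNA share difference ranged from -0.00749 to 0.00224 percentage points, and the light-strand share difference from -0.735 to 5.94. Over the same omissions the log2 tRNA to rRNA ratio differed by 1.34 to 1.96.

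Replicate numbers are shared between groups. The deviations of same-numbered libraries from their group means correlated at r = 9.10e-04, 0.0806 and -0.0363. With 3 libraries a group and Fb replicate 1 apart, this cannot show whether the numbers pair libraries. With the replicate block mt-Tq had an edgeR adjusted p = 0.0603 and a log2 fold change of 2.99, and mt-Rnr1 outside nuclear tRNA rows was at 0.053.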
